A study of Nannospalax ehrenbergi and Mus musculus with 14 samples.

Results

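miR-208a, miR-208b and miR-499 are microRNAs encoded in introns of myosin heavy chain genes, the motor proteins of the muscle sarcomere. All rows named for these 3 microRNAs, with either arm of the hairpin, were taken from both deposited tables, which gave 6 of the 1326 microRNA names: miR-208a-5p, miR-208a-3p, miR-208b-5p, miR-208b-3p, miR-499-5p and miR-499-3p. The rows were taken by name and not by a cut on their values, though earlier results of these data were known when the family was chosen. Reads on the 3p arm of miR-208b and on the 5p arm of miR-499 made up nearly all reads of the family, so these 2 microRNAs carry the results.

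Small RNA was sequenced from animals treated with 3-methylcholanthrene (3MCA), a carcinogen, which was injected once under the skin on one flank of the neck. The injected side (IS) is the mass that grew there, and the uninjected side (UIS) is the opposite side of the same treated animals, labelled as muscle. *Spalax*, the blind mole rat, received 1 mg in 500 µl and C57BL/6 mice received 200 µg in 200 µl. The benign granulomas of *Spalax* Sp600 and Sp976 were taken out at 14 and 16 months. The malignant fibrosarcomas of *Spalax* Sp2240 and Sp2230 were taken out at 18 and 30 months, and those of mice M512, M1023 and M1019 at 11, 12 and 14 weeks. The mice were 3 to 4 months old. *Spalax* were caught in the field, and their ages were estimated at about 2 to over 10 years, with no age given for a single animal. Each *Spalax* group held 2 libraries and each mouse group 3, which makes 14 libraries in all. No microRNA library of an untreated animal was analysed here. The UIS therefore stands for tissue of a treated, tumor-bearing animal.

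miR-208b lies in an intron of *Myh7*, the myosin of slow skeletal fibers and of the heart ventricle, and miR-499 lies in an intron of *Myh7b*, a related myosin. Both are known as microRNAs of slow, oxidative fibers, where they act with their host genes to hold the slow fiber program against repressors of slow genes. miR-208a lies in *Myh6*, the myosin of heart muscle, and is known from the heart. A microRNA is cut from a hairpin, and the bases near the 5′ end of the mature strand, its seed, pair with the target.

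The hairpins are shown because they hold the bases that the 3 microRNAs share. The sequences are the mouse genes of GENCODE M21 on GRCm38, written in DNA letters from 5′ to 3′, with the longest run common to all 3 in capitals.
Mir208a: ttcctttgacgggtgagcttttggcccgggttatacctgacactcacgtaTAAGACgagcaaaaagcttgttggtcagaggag
Mir208b: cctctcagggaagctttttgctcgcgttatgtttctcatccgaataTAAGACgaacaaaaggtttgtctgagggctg
Mir499: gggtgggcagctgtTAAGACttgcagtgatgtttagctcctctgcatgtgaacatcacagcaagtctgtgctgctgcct

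Mir208a spans chr14:54949060-54949142 on the minus strand within an intron of *Myh6*. Mir208b spans chr14:54975700-54975776 on the minus strand within an intron of *Myh7*. Mir499 spans chr2:155622880-155622958 on the plus strand within an intron of *Myh7b*. None of the 3 hairpins overlaps an annotated exon of its host gene. The run TAAGAC starts at base 51 of the 83 bases of Mir208a, at base 47 of the 77 bases of Mir208b and at base 15 of the 79 bases of Mir499. It thus lies on the 3p side of both miR-208 hairpins and on the 5p side of the miR-499 hairpin, the same arms on which the reads of miR-208b and miR-499 were found. The run occurs in 33 of the 2201 annotated hairpins on the strand given by the annotation (1.5%). The longer run TATAAGACGA is shared by the pair of miR-208 hairpins and occurs in no other (2 of 2201, 0.0909%). Mature *Spalax* sequences were not used here, and reads of both species were counted under mouse names.

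The libraries held 2034574 to 13982842 reads on microRNAs. A normalized count is the deposited value, namely reads divided by a size factor of the library. The mouse and *Spalax* tables were scaled separately, so normalized counts are compared only within a species. miR-1, miR-133 and miR-206, the defining microRNAs of striated muscle, together with the family described here held 35.2% to 37.3% of the reads of the *Spalax* UIS and 27.7% to 29.8% of those of the mouse UIS, so both were muscle by these markers. At the IS they held 0.00959% to 0.165% in *Spalax*. In mice they held 0.0101% in the tumor of mouse M1019, but 2.57% and 3.95% in those of mice M1023 and M512.

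Some mouse libraries stood apart or went against their labels. The UIS column that remains for mouse M1019 carries an animal number found in no label, so this library, called unnumbered here, was used as a replicate of its group and was not paired. The UIS of mouse M512 held few reads of miR-208b-3p and miR-499-5p, although its total was the deepest of all libraries. The same library held 34392 normalized counts of miR-196a-5p against 33.9 and 8.24 in the unnumbered library and that of mouse M1023. For miR-196b-5p it held 3399 against 5.43 and 4.12, and for miR-615-3p it held 920 against 59.7 and 8.24. These 3 microRNAs, which are encoded in Hox clusters and of which miR-196 is known from the hind part of the body, were picked after their values were seen, as the ones highest in this library against the other mouse UIS. Their part in the low values of the slow-fiber microRNAs was not tested.

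In *Spalax*, miR-208b-3p was abundant at the UIS of every animal and had 0 to 11 reads at every IS. In the granuloma-bearing animals, Sp600 and Sp976, its normalized count was 1759 and 6733 at the UIS and 13.7 and 1.27 at the IS, which stand for 1241, 5299, 11 and 1 reads. In the fibrosarcoma-bearing animals, Sp2230 and Sp2240, it was 2322 and 4089 at the UIS and 1.09 and 0 at the IS, with 1929, 3798, 2 and 0 reads. All 4 UIS values lay above all 4 IS values, and the lowest of the former was 128-fold the highest of the latter.

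The change was tested with limma on log2(normalized count + 1), with p-values adjusted by the Benjamini-Hochberg method over all microRNAs tested. The added 1 makes the change of a microRNA with few reads look smaller than it is. miR-208b-3p fell by 9.22 on the log2 scale in granuloma (standard error 1.01, limma adjusted p = 0.000596) and by 11.06 in fibrosarcoma (standard error 1.01, limma adjusted p = 0.000539). On the linear scale the group means were 4246 ± 3517 and 7.50 ± 8.81 (SD, n = 2) in granuloma, a 566-fold difference. With 1 library left out, the change in granuloma ranged from -10.57 (without the IS of Sp600) to -7.87 (without the IS of Sp976), so its size rests on single libraries. In fibrosarcoma they were 3206 ± 1250 and 0.544 ± 0.770 (SD, n = 2). The latter rests on 2 reads, and the pooled rates differed 3739-fold with a counting interval (95%, exact) of 1035 to 30882.

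miR-499-5p followed the same order of libraries at the UIS. Its normalized count was 2341 and 8505 in animals Sp600 and Sp976, and 2615 and 4361 in animals Sp2230 and Sp2240. At the IS it was 6.24 and 2.53 in the granulomas and 15.8 and 2.17 in the fibrosarcomas. The tumor of animal Sp2230 stood out with 29 reads, where the other 3 *Spalax* IS libraries held 1 to 5. miR-499-5p fell by 9.79 on the log2 scale in granuloma (standard error 0.94, limma adjusted p = 0.000342), and its means of 5423 ± 4359 and 4.39 ± 2.62 (SD, n = 2) differed 1236-fold. In fibrosarcoma it fell by 8.86 (standard error 0.94, limma adjusted p = 0.000719), and its means of 3488 ± 1234 and 8.98 ± 9.63 (SD, n = 2) differed 388-fold. The latter change ranged from -10.06 (without the IS of Sp2230) to -7.65 (without the IS of Sp2240).

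**Figure D1:**
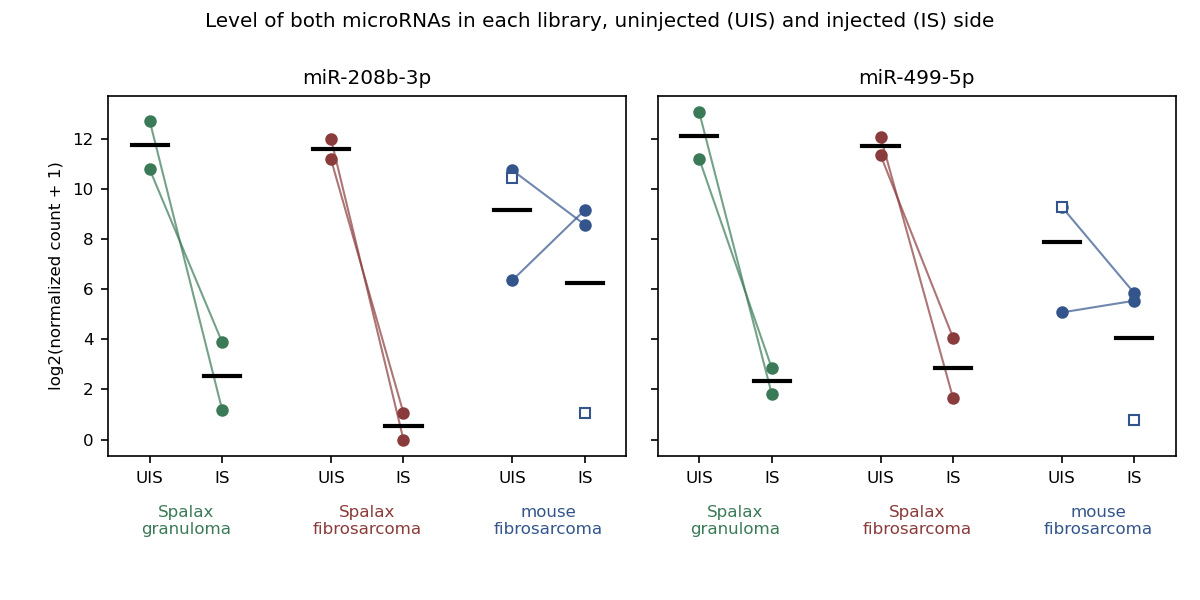
Level of miR-208b-3p (left) and miR-499-5p (right) as log2(normalized count + 1) in each of the 14 libraries, at the uninjected (UIS) and injected (IS) side. Lines link the sides of an animal, open squares are mouse libraries without a partner and black bars are group means; every *Spalax* line falls steeply, while for miR-208b-3p the line of mouse M1023 falls from 1721 to 381 normalized counts and that of mouse M512 rises from 80.7 to 570.

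The minor arms were sparse. miR-499-3p, the passenger strand of miR-499, had 15, 50, 22 and 27 reads at the UIS of *Spalax* Sp600, Sp976, Sp2230 and Sp2240 and none at any *Spalax* IS. Against a floor of 3 reads per library it was at least 11.2-fold lower at the IS in granuloma and at least 6.82-fold lower in fibrosarcoma. It passed the test in both comparisons (limma adjusted p = 0.00126 and 0.00222), but it entered that test through its UIS reads alone, so these passes are a description. miR-208b-5p had 2 to 12 reads at each *Spalax* UIS, 21 in all, and 1 read over the 4 IS libraries.

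miR-208a was near absent from all tissue. Its 3p arm had 8 reads over the 4 *Spalax* UIS libraries, 3 over the mouse UIS and none over the 7 IS libraries. Its 5p arm had 2 and 1 reads at the UIS of *Spalax* and mice, none at the *Spalax* IS and 3 at the mouse IS. A count of 0 allows up to 3 reads in a library, and no miR-208a row was deep enough to be tested.

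Of the 6 rows, 3 were deep enough to be tested in *Spalax* (a normalized count of at least 10 in at least 2 of the 8 libraries), and all 3 fell in both growths. They passed that filter through the UIS, and a row that enters in this way tends to be higher there. Their count is therefore a description. Over all microRNAs tested, 22.8% were lower at the IS of granulomas (102 of 447) and 22.1% were lower at the IS of *Spalax* fibrosarcomas (99 of 447). These shares depend on the scaling: 114 and 68 microRNAs were called higher, but 253 higher and 49 lower were called in granuloma, and 193 higher and 41 lower in fibrosarcoma, when libraries were scaled to total reads. The median change of all microRNAs then moved from 0.13 to 1.90 in granuloma and from -0.23 to 1.40 in fibrosarcoma. miR-208b-3p and miR-499-5p fell under either scaling, with changes of -7.51 and -8.05 in granuloma and of -9.82 and -7.27 in fibrosarcoma with total reads.

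Other muscle microRNAs fell with them. Of the 11 rows of miR-1, miR-133 and miR-206, 8 were tested in *Spalax* and 8 fell in each growth, with a median change of -10.45 in granuloma and -12.95 in fibrosarcoma, where the median over all microRNAs was 0.13 and -0.23. miR-1a-3p, the most widely known muscle microRNA, changed by -11.86 (standard error 0.90) and -13.03 (standard error 0.90). All 9 rows of miR-486 and miR-378, which are rich in muscle but are made by other cells too, fell as well, with medians of -4.88 and -4.26. The changes of miR-208b-3p and miR-499-5p thus lay between the medians of these groups. The groups themselves overlapped. Rows of miR-1, miR-133 and miR-206 ranged from -11.86 to -3.52 in granuloma and from -13.56 to -3.55 in fibrosarcoma. Since the samples are whole tissue, fewer muscle cells and less of a microRNA per muscle cell cannot be told apart.

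Markers of other cell types also moved with the side. The 4 tested rows of the leukocyte microRNAs miR-223 and miR-142 (of 5) rose in both *Spalax* growths, and their summed share of the library went from 0.0242% to 0.0464% at the 4 UIS libraries up to 0.638% to 2.35% at the IS. All 6 fibroblast rows (miR-199a, miR-199b and miR-214, where miR-199a-3p and miR-199b-3p gave identical values) rose in granuloma, with a median change of 2.93. In *Spalax* fibrosarcoma these rows had changes of 0.60 to 1.28, and 0 of the 6 passed. Both rows of the endothelial miR-126a fell in each growth, with medians of -2.30 and -2.36, but neither row passed in either growth with total reads (medians -0.46 and -0.68). With total reads all 6 fibroblast rows rose in both growths, with medians of 4.77 and 2.43. The part of these cell types in the fall of miR-208b-3p and miR-499-5p was not tested.

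**Figure D2:**
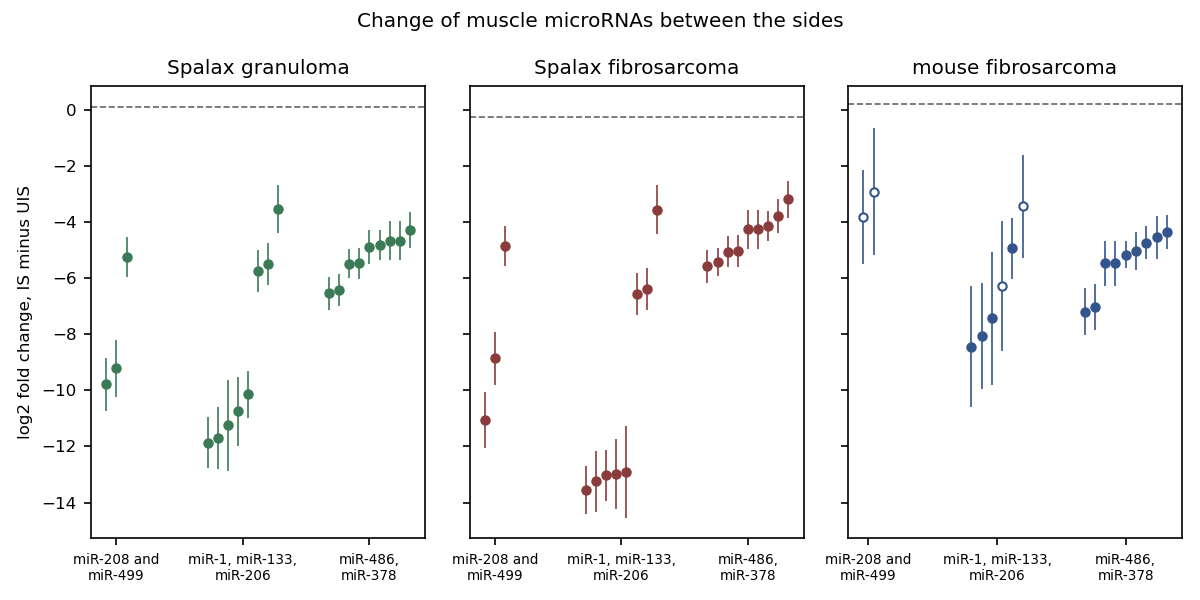
Log2 fold change (IS minus UIS) with its standard error for each tested row of the miR-208 and miR-499 family, of miR-1, miR-133 and miR-206, and of miR-486 and miR-378, in the 3 comparisons. Filled points passed an adjusted p of 0.05 in limma, open points did not, and the dashed line is the median of all microRNAs tested; the family lies far below that line in both *Spalax* panels, with miR-499-3p the highest of its 3 points, and its 2 points are open in mice.

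Whether the growths differ was asked with the difference of the changes, granuloma less fibrosarcoma, in the same fit. For miR-208b-3p it was 1.84 (standard error 1.43, limma adjusted p = 0.556). For miR-499-5p it was -0.93 (standard error 1.33, limma adjusted p = 0.760), and for miR-499-3p it was -0.40 (standard error 1.00, limma adjusted p = 0.848). Thus 0 of the 3 tested rows passed, where 3.80% of all microRNAs did (17 of 447). At an unadjusted p under 0.05 the number was also 0, where 95 of all microRNAs were below it, and it was 0 with edgeR and DESeq2, which called 21 and 61 of all microRNAs. The standard errors leave room for differences of several-fold. At the IS the order of the means was reversed between the pair, with more miR-208b-3p in granuloma (7.50 against 0.544) and more miR-499-5p in fibrosarcoma (8.98 against 4.39). With 0 to 29 reads behind these values, the IS groups were not compared by a test of their own.

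At the UIS, granuloma-bearing and fibrosarcoma-bearing *Spalax* overlapped. Animal Sp976 held the most of both microRNAs and animal Sp600 the least, so that the 2 fibrosarcoma-bearing animals lay between them. The difference was 0.16 for miR-208b-3p (standard error 1.01) and 0.40 for miR-499-5p (standard error 0.94), with a limma adjusted p = 1 for each. No microRNA passed limma in this comparison, a share of 0% of 447, while 5 had an unadjusted p under 0.05, and edgeR and DESeq2 called 0 as well. The highest UIS library exceeded the lowest 3.83-fold for miR-208b-3p and 3.63-fold for miR-499-5p within the granuloma-bearing group alone.

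In mice the picture was mixed. miR-208b-3p had normalized counts of 1368, 1721 and 80.7 at the UIS of the unnumbered library, mouse M1023 and mouse M512, and of 1.09, 381 and 570 at the IS of mice M1019, M1023 and M512. The sides overlapped: the tumors of mice M1023 and M512 held more than the UIS of mouse M512. Group means were 1057 ± 864 and 317 ± 290 (SD, n = 3).

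miR-499-5p had normalized counts of 622, 623 and 32.7 at the UIS in the same order and 0.725, 56.4 and 45.6 at the IS. Its means were 426 ± 341 and 34.2 ± 29.5 (SD, n = 3), and here too the UIS of mouse M512 lay within the range of the IS. The tumor of mouse M1019 held 3 reads of miR-208b-3p and 2 of miR-499-5p among 9574014 reads, although it was the deepest IS library. miR-499-3p had 14, 6 and 0 reads at the UIS and 0, 5 and 2 at the IS, and only the unnumbered library exceeded 10 normalized counts, so it was not tested in mice alone. The tumors with more of the pair, those of M1023 and M512, are also those in which muscle microRNAs as a whole held 2.57% and 3.95% of the reads, against 0.0101% in that of M1019, and the part of this in the result was not tested.

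Neither microRNA passed limma in mice, and the unadjusted p was over 0.05 for both. The log2 change was -2.91 for miR-208b-3p (standard error 2.27, limma adjusted p = 0.299) and -3.82 for miR-499-5p (standard error 1.67, limma adjusted p = 0.0882). On the recovered reads, DESeq2 called miR-499-5p (-3.74, adjusted p = 0.00995) and edgeR called neither. Of all microRNAs tested, 25.6% were lower at the mouse IS (140 of 547), and 176 were higher, which became 31 and 373 when libraries were scaled to total reads. That scaling moved the median of all microRNAs from 0.21 to 2.57 and the changes to -0.70 and -1.69. With the animal as a replicate block, which rests on mice M512 and M1023 alone, miR-208b-3p turned to 0.32 (adjusted p = 0.838) and miR-499-5p was at -1.49 (adjusted p = 0.292). Without the tumor of mouse M1019, miR-208b-3p was at -0.31 (adjusted p = 0.845). Without both libraries of mouse M512, it was at -5.77 (adjusted p = 0.107), and miR-499-5p was at -5.97 and passed the test (adjusted p = 0.0385).

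Within animals, miR-208b-3p was 4.52-fold lower at the IS than at the UIS in mouse M1023 and 7.06-fold higher at the IS in mouse M512. miR-499-5p was 11.1-fold lower at the IS in mouse M1023 and 1.39-fold higher in mouse M512. These sizes depend on the scaling. As a share of all reads, miR-208b-3p stood at 0.00931% and 0.00933% on the UIS and the IS of mouse M1023, and at 0.000300% and 0.0148% on those of mouse M512. For miR-499-5p the shares were 0.00337% and 0.00138% in mouse M1023 and 0.000122% and 0.00119% in mouse M512. In Sp600, the *Spalax* with the smallest fall of miR-208b-3p, the UIS exceeded the IS 128-fold for miR-208b-3p and 375-fold for miR-499-5p in normalized counts. The smallest fall of miR-499-5p in *Spalax* was 166-fold, in Sp2230. As shares of all reads at the UIS and the IS of Sp600, miR-208b-3p stood at 0.0107% and 0.000308%. Those of miR-499-5p in Sp600 were 0.0143% and 0.000140%.

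Few microRNAs were as low as this pair at the UIS of mouse M512. With 1 added to each value, its UIS held 18.9-fold less miR-208b-3p and 18.5-fold less miR-499-5p than the mean of the other 2 mouse UIS libraries. These ranked 3 and 4 from the lowest among 547 microRNAs, of which 6 were below 0.1 times the mean, and the median ratio was 0.939. The other 4 were miR-135a-5p, miR-370-3p, miR-669b-5p and miR-466c-5p, with means of 10.2 to 32.9 normalized counts in the other libraries. Muscle microRNAs as a class were not low there. miR-133a-3p, the leading muscle microRNA of these libraries, was 1.52 times as high as in the others and miR-133b-3p was 1.54 times, whereas miR-1a-3p was at 0.799 times and miR-206-3p at 0.555 times. The share of miR-499-5p among the pair was 28.8% in this library, between 26.6% and 31.2% in the other 2, so that both microRNAs were lower by like amounts.

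**Figure D3:**
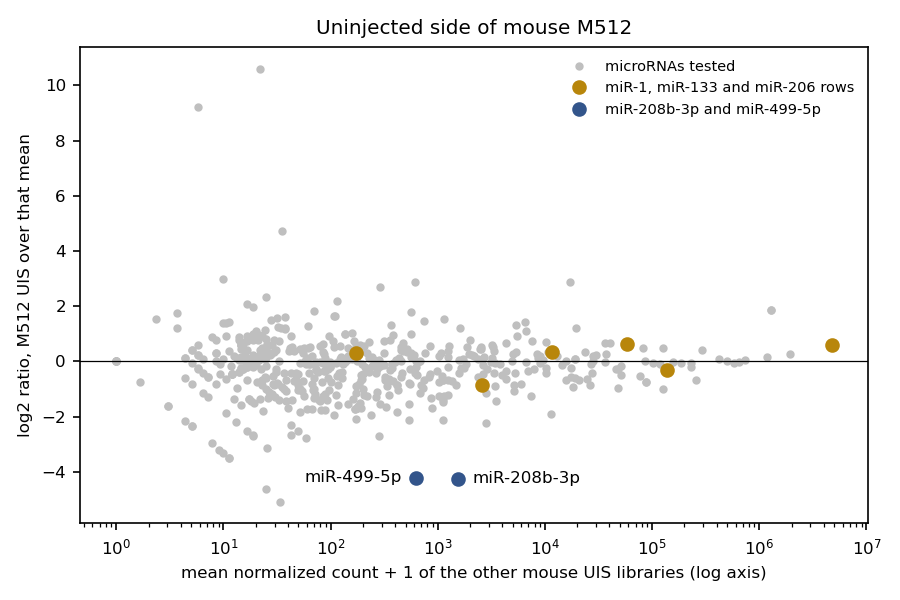
Log2 ratio of the uninjected side of mouse M512 to the mean of the other 2 mouse UIS libraries, with 1 added to each value, against that mean on a log axis, for the 547 microRNAs tested in mice. miR-208b-3p and miR-499-5p (blue) lie 18.9-fold and 18.5-fold below the mean at a level where few grey points stray, the rows of miR-1, miR-133 and miR-206 (ochre) lie around 0, and the 2 topmost points are miR-196a-5p and miR-196b-5p.

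In the *Spalax* table, 5 mouse libraries (without the unnumbered UIS) were scaled together with the 8 of *Spalax*, so the changes in fibrosarcoma were compared between the species in a fit of these 13 libraries, a comparison added after the data were seen. The *Spalax* change less the mouse change was -8.94 for miR-208b-3p (standard error 3.22, limma adjusted p = 0.0678) and -5.91 for miR-499-5p (standard error 2.36, limma adjusted p = 0.0954). Neither passed, though both values stayed negative with each library left out in turn. For miR-499-3p it was -4.61 (standard error 1.25, limma adjusted p = 0.0238), where 26.0% of all microRNAs passed (158 of 607). This row entered the fit through its reads at the *Spalax* UIS, and the 5 mouse libraries held 0 to 6 reads of it, so the value depends on the level at the *Spalax* UIS and on the added 1, and no difference between the species is read from it. Without the tumor of mouse M1019, the differences were -11.51 for miR-208b-3p (adjusted p = 0.00434) and -7.50 for miR-499-5p (adjusted p = 0.0186). Without the UIS of mouse M512 they were -6.79 (adjusted p = 0.234) and -3.86 (adjusted p = 0.322), and that of miR-499-3p was -3.19 (adjusted p = 0.0788).

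The balance between the pair was read from the reads alone, which needs no size factor. miR-499-5p took 57.1%, 55.8%, 53.0% and 51.6% of the reads of both microRNAs at the UIS of *Spalax* Sp600, Sp976, Sp2230 and Sp2240. In mice it took 31.2%, 26.6% and 28.8% at the UIS of the unnumbered library, mouse M1023 and mouse M512. The ranges did not overlap, and the means of 54.4% ± 2.53 (SD, n = 4) and 28.9% ± 2.33 (SD, n = 3) differed by 25.5 percentage points. An exact permutation test, two-sided, gave p = 0.0286, the smallest that 4 against 3 libraries allow, and 0.0857 when adjusted over the 3 quantities compared between the species in this way. The other 2 were the share of the family among muscle microRNA reads (0.152% ± 0.0922 in *Spalax*, n = 4, against 0.0298% ± 0.0245 in mice, n = 3, exact permutation p = 0.0857) and the share of miR-499-3p among both arms of miR-499 (0.826% against 1.42%, exact permutation p = 0.571). Reads of both species were counted under mouse names, so a difference in how well *Spalax* reads match them cannot be told apart from a difference in level here. Age, dose and time since injection also differed fully between the species and cannot be told apart from it. The paper lists its mice as male, Sp600, Sp976 and Sp2240 as female and Sp2230 as male.

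At the IS the balance moved in no single direction. In mice M1023 and M512, miR-499-5p took 12.9% (95% exact binomial interval 10.3 to 15.8) and 7.40% (5.36 to 9.91) of 605 and 554 reads, below every UIS value. In *Spalax* Sp2230 it took 93.5% of 31 reads (78.6 to 99.2), above every UIS value, and in *Spalax* Sp600 it took 31.2% of 16 reads (11.0 to 58.7). The remaining IS libraries held 1 to 5 reads of the pair. Over the 5 animals with reads of both microRNAs on both sides, the log2 ratio of miR-499-5p to miR-208b-3p changed by -0.166 ± 2.42 (SD; two-sided exact sign-flip test within animals, p = 0.938, where 0.0625 is the smallest possible) and was higher at the IS in 2 of 5. The intervals cover counting error only, since reads carry no molecular identifiers.

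**Figure D4:**
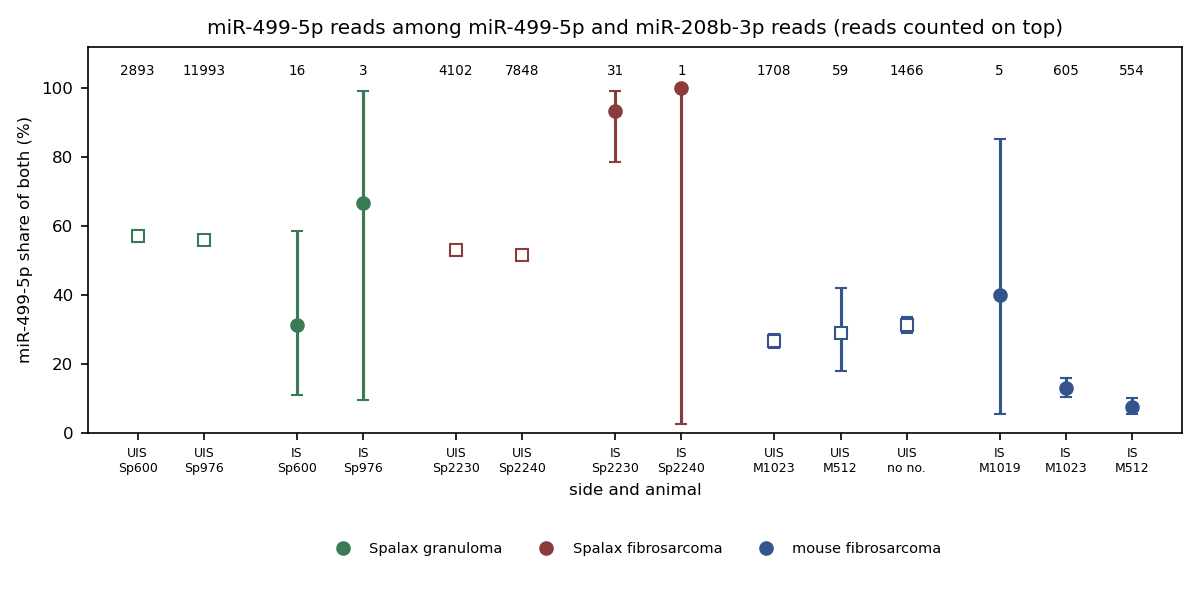
Share of miR-499-5p among the reads of miR-499-5p and miR-208b-3p (%) in each library, open squares for the UIS and filled circles for the IS, with 95% exact binomial intervals and the number of reads of both on top. The *Spalax* UIS libraries sit at 51.6% to 57.1% and the mouse UIS libraries at 26.6% to 31.2%, while the IS libraries scatter from 7.40% to 100% and mostly rest on few reads.

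The family was also set against the other muscle microRNAs of the same library. Of all reads on miR-1, miR-133, miR-206 and the family, the family took 0.0675%, 0.276%, 0.0994% and 0.165% at the UIS of *Spalax* Sp600, Sp976, Sp2230 and Sp2240, and 0.0444% and 0.00152% at the UIS of mice M1023 and M512. At the IS it took 0.288%, 0.885%, 2.94% and 0.441% in the same *Spalax*, and 0.422% and 0.408% in mice M1023 and M512. The share was thus higher at the IS in 6 of 6 animals. Most of the muscle reads were miR-133a-3p, so the share depends largely on the fall of that row. Other muscle rows also fell less than miR-133a-3p in some animals. In Sp600 the fall was 827-fold for miR-133a-3p, 275-fold for miR-206-3p and 380-fold for miR-133b-3p. In mouse M512, miR-206-3p was 2.60-fold higher at the IS. In Sp2230 the folds of miR-206-3p and miR-133b-3p were larger (11965-fold and 14124-fold, against 8814-fold for miR-133a-3p). They rest on 4 and 7 reads at the IS, where miR-133a-3p had 982. The mean difference was 0.788 ± 1.01 percentage points (SD), and a two-sided exact sign-flip test within animals gave p = 0.0312, the lowest value that 6 pairs can reach. Without *Spalax* Sp2230 it was 0.378, with the smallest p that 5 pairs allow (0.0625, exact).

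The size of this difference varied widely between animals. The share at the IS was 2.66-fold to 4.26-fold that of the UIS in *Spalax* Sp600, Sp976 and Sp2240, 29.6-fold in *Spalax* Sp2230, 9.51-fold in mouse M1023 and 268-fold in mouse M512. In *Spalax* Sp976 and Sp2240 the family had 3 and 1 reads at the IS, and the 95% exact interval of the IS share (0.183% to 2.56% and 0.0112% to 2.43%) held the UIS value. In the other 4 animals it did not. The tumor of mouse M1019, which has no partner, had a share of 0.517% from 5 of 967 reads, close to those of the other mouse tumors.

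**Figure D5:**
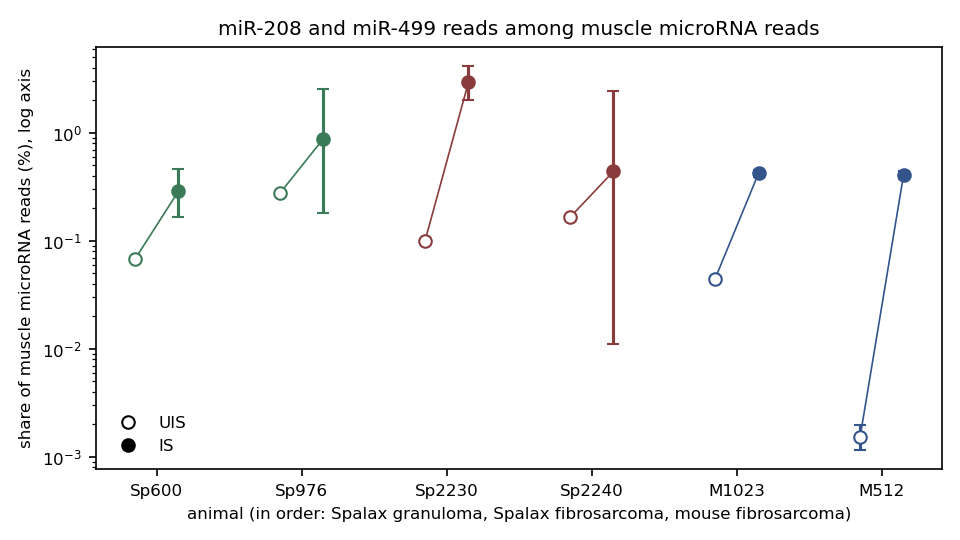
Share of the reads of miR-1, miR-133, miR-206 and the miR-208 and miR-499 family that fell on the family (%, log axis) in the 6 animals with both sides, open for the UIS and filled for the IS, with 95% exact binomial intervals. Every line rises from the UIS to the IS, but the intervals of *Spalax* Sp976 and Sp2240, with 3 and 1 family reads at the IS, reach below their UIS values, and mouse M512 starts from the lowest UIS share, 0.00152%.

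Of all microRNAs tested, miR-499-5p had the profile most like that of miR-208b-3p and the reverse, in each species. Likeness was the root mean square difference between log2 profiles centred on their means, over 8 *Spalax* or 6 mouse libraries, where 0 is an identical profile. Between the pair it was 1.12 in *Spalax* and 1.10 in mice. A flat profile would have differed from miR-208b-3p by 5.20 in *Spalax* and 3.30 in mice. Next to miR-208b-3p came miR-133a-5p (1.19), miR-133b-3p (1.24) and miR-135a-5p (1.33) in *Spalax*, and miR-206-3p (1.75), miR-653-5p (2.08) and miR-1a-1-5p (2.36) in mice. Next to miR-499-5p came miR-135a-5p (1.31), miR-135a-2-3p (1.82) and miR-378d (1.84) in *Spalax*, and miR-653-5p (1.48), miR-1a-1-5p (1.72) and miR-206-3p (1.84) in mice. These values are descriptions, since the profiles share their libraries.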

How the data were processed

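Small RNA libraries (TruSeq small RNA kit) of 14 tissue samples were used; the RNA-Seq libraries were not used here. The authors removed adaptors, used mirDeep for mapping and DESeq2 for the comparison of the sides. The submitters' processing notes name TopHat 1.4.1, HTSeq, DESeq and GRCm38 without saying for which data, and the settings of the microRNA mapping are not given in the sources used here. The deposited unit is a signal, the read count of a microRNA scaled by the size factor of its library. The factors equal DESeq2's median-of-ratios factors, computed over the 6 mouse libraries for the mouse table and over all 14 for the *Spalax* table. Dividing by the value of a read gave whole reads for 100% of the values (within 0.02). The reads of 5 mouse libraries found in both tables were identical, and the mouse table was used for them except in the comparison between the species.

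Values were tested as log2(value + 1) with limma 3.58.1 in R 4.3.3, with a trend in the spread, for microRNAs that reached 10 in 2 or more *Spalax* libraries, or in 3 or more of the mouse. A fit held the 8 *Spalax* libraries and another the 6 mouse libraries, with Benjamini-Hochberg adjustment and a threshold of 0.05. This test was planned for normalized values. Shares and ratios of reads were compared by exact permutation tests, with exact (Clopper-Pearson) intervals at 95%, in Python 3.11.15 with scipy 1.17.1. Alternatives were edgeR 4.0.16 and DESeq2 1.42.0 on the recovered reads, other scalings, no filter, a pseudocount of 0.1, no trend, the animal as a replicate block, fits of the compared libraries only, and leaving out each library. The scripts were tested on simulated data. The simulated reads had a set spread and no animal effect, so they do not show how limma behaves at the spread of these libraries.

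Condition, side and animal come from the sample labels, and same-numbered sides come from the same animal, which makes 6 pairs. Deviations from the group means correlated within animals at 0.0041 in *Spalax* fibrosarcoma, 0.093 in granuloma, -0.107 in mouse M1023 and 0.122 in mouse M512. Replicates differed by far more than sampling noise (the lowest chi-square over its degrees of freedom was 189.6 among 10 pairs) and were kept separate. The limma p-values rest on the spread between libraries within the groups of these animals, moderated over all microRNAs. They treat the sides of an animal as separate libraries. Only the replicate block and the sign-flip tests compare the sides within animals. The microRNAs, the muscle and cell type lists and the likeness rule were chosen with earlier results of these data known. Named beside the family are the other muscle microRNAs where a result turns on them and the 3 most similar profiles for each of the pair.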

Additional observations from a re-analysis of the deposited data

Results flagged for a closer look

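The change of miR-499-3p in *Spalax* fibrosarcoma less its change in mouse fibrosarcoma was -4.61 (standard error 1.25, limma adjusted p = 0.0238) in the fit of both species, a difference that passed the threshold. All *Spalax* fibrosarcoma libraries held 0 reads of it at the IS, against 22 and 27 at the UIS, and the mouse libraries of that fit held 6 and 0 at the UIS and 0, 5 and 2 at the IS. The row was in the fit through its *Spalax* UIS reads alone, so the value depends on those and on the 1 added to each value, and no difference between the species is read from it.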

How the results depend on the processing

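In *Spalax*, the falls of miR-208b-3p, miR-499-5p and miR-499-3p kept their direction and passed the threshold in both growths under all 18 alternatives each, the replicate block included. These rows passed the filter through the UIS, and miR-499-3p had 0 reads at every *Spalax* IS. Rows that enter in this way tend to be higher at the UIS, so these passes are a description. Leaving out 1 library moved the adjusted p to at most 0.0203, while the changes of miR-208b-3p and miR-499-5p ranged from -10.57 to -7.87 and -10.72 to -8.85 in granuloma and from -11.59 to -10.53 and -10.06 to -7.65 in fibrosarcoma.

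In mice, the block turned miR-208b-3p to 0.32, and it ranged from -4.35 to -0.31 over libraries left out. miR-499-5p passed with DESeq2 (-3.74, adjusted p = 0.00995), without the UIS of mouse M512 (-5.23, adjusted p = 0.0465) and without both libraries of that mouse (-5.97), and in no other of its 16 alternatives (adjusted p from 0.00995 to 0.420); over single libraries left out it ranged from -5.23 to -2.19. The cause was not tested. For the difference between the growths, miR-208b-3p ranged from 0.49 (without the IS of Sp600) to 3.19 (without the IS of Sp976), miR-499-5p ranged from -2.13 to 0.27 and miR-499-3p from -1.17 to 0.37 over libraries left out; both turned without the UIS of Sp976 (0.00 and 0.37), and the former also without the IS of Sp2230 (0.27). Between the UIS groups, miR-208b-3p turned to -0.03 under total scaling, and ranged from -0.81 to 1.13 over libraries left out, miR-499-5p from -0.53 to 1.33 and miR-499-3p from -0.37 to 1.17; all 3 turned without Sp976, and miR-208b-3p without Sp2230 (-0.25). Between the species, 1 library left out gave -11.51 to -6.79 for miR-208b-3p, -7.95 to -3.86 for miR-499-5p and -6.04 to -3.19 for miR-499-3p, which passed in 8 of 13 such fits and missed without the UIS of mouse M512 and without each *Spalax* fibrosarcoma library (highest adjusted p = 0.0838).

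The log2 ratio of the pair was 0.0286 with 0.5 read added to both, and -1.13 to 0.377 with 1 animal left out, without passing. The share among muscle microRNAs was 0.378 to 0.902 with 1 animal left out, and 0.962 without pairs of 3 or fewer reads (4 pairs, exact p = 0.125); 5 pairs cannot go below 0.0625.

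Over all microRNAs, the 17 called between the growths became 61 with DESeq2, 5 with the block and 0 without the filter or with a pseudocount of 0.1, and the 140 lower in mice became 86 with the block. Depth limits the IS of *Spalax*, where 0 to 29 reads stand behind each value.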

Other observations

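In mouse M512, miR-196a-5p had 17897 reads at its UIS and 7 at its IS, against 6 and 203 in mouse M1023. At the 4 *Spalax* UIS libraries miR-196a-5p had 21 to 53 reads. miR-196b-5p had 1769 reads at the UIS of mouse M512 and 704 at its IS, where no other mouse library exceeded 25 reads. miR-451a, the red cell microRNA, was 7.43-fold higher at the UIS of mouse M512 than the mean of the other 2 mouse UIS libraries. All of these were picked after their values were seen, and no explanation was tested.

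The 3 rows of the red cell microRNAs miR-451a and miR-144 had median changes between the sides of -0.69 and -0.79 in the *Spalax* granulomas and fibrosarcomas and of -2.23 in mice. With total reads these medians were 1.15, 0.89 and 0.15, and none of the 3 rows passed under either scaling. Of the 4 rows of the smooth muscle microRNAs miR-143 and miR-145a, 2 fell in each *Spalax* growth and 4 fell in mice, with medians of -1.18, -1.60 and -2.27; with total reads none of the 4 passed in any comparison (medians 0.66, 0.09 and 0.09). The fall of miR-208b-3p and miR-499-5p in *Spalax* was larger than that of any of these rows. In mice, 4 of 6 tested rows of miR-1, miR-133 and miR-206 fell, and miR-133b-3p (-6.28, limma adjusted p = 0.0512) and miR-206-3p (-3.43, limma adjusted p = 0.148) did not pass. With total reads 2 of these 6 fell. The 9 rows of miR-486 and miR-378 all fell in mice, with a median of -5.15, as did both endothelial rows (median -2.31, but 0.07 and neither past the threshold with total reads), while 5 of 6 fibroblast rows and 2 of 4 leukocyte rows rose. All 6 fibroblast rows and all 4 tested leukocyte rows rose in mice with total reads (medians 4.04 and 4.29).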
